A study of Homo sapiens with 16 samples.

Results

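Growth differentiation factor 11 (GDF11) was added to young mesenchymal stem cells (MSCs), and no gene passed the test for a change in expression. The comparison took 8 of the 16 libraries of the study, chosen by their labels: 4 of MmC-/GDF11-, cells that received neither agent, and 4 of MmC-/GDF11+, cells given 10 ng/mL of GDF11 over 10 days of culture. The cells were ASC52telo, a line of MSCs from human adipose tissue immortalized with telomerase, so all replicates came from 1 line. In the other 8 libraries the same cells had been exposed to 1.5 µg/mL of mitomycin C (MmC), which crosslinks DNA, for 18 h to make them senescent, again without (MmC+/GDF11-) or with GDF11 (MmC+/GDF11+). MSCs kept free of MmC are called young here. The study calls the 4 libraries of a group biological replicates without naming separate donors, so the p-values measure the spread between cultures of this line. All 16 libraries were fitted together, so this spread includes that of the cultures exposed to MmC.

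GDF11 is a ligand of the TGF-beta superfamily, closely related to myostatin and the activins. It binds the type II receptors ACVR2A and ACVR2B, which then activate the type I receptors ACVR1B and TGFBR1. These phosphorylate SMAD2 and SMAD3, which enter the nucleus with SMAD4 and act on target genes such as SMAD7 and matrix genes. Extracellular antagonists such as follistatin (FST) bind the ligand, and the inhibitory SMAD7 and the corepressors SKI and SKIL restrain the response.

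Poly(A) RNA was sequenced and counted per gene. The total count of a library lay between 74041671 and 99649535 in MmC-/GDF11- and between 71275337 and 85813114 in MmC-/GDF11+. Levels are given as CPM, the count of a gene scaled to the size of its library, and ± is the SD over the 4 libraries of a group. The MSC surface markers were present, with summed levels of 5419 to 6385 CPM without and 5386 to 6422 CPM with GDF11, although MCAM had a median of only 2.08 CPM. The telomerase gene TERT lay between 855 and 1779 CPM in the 8 libraries. Of the markers of other cell types, HLA-DRA (blood cells) and KRT5 (epithelium) had 0 counts, and ADIPOQ, the adipocyte hormone, had 1 count. TEK, an endothelial receptor, and KRT14, an epithelial keratin, were present in these cells, with medians of 43.7 and 62.5 CPM. The blood cell marker CD34 was present too, with a median of 8.82 CPM and a highest level of 18.9 CPM, and CD14 had a median of 1.47 CPM. The endothelial markers PECAM1 and CDH5 had medians of 6.05 and 2.4 CPM. The summed blood cell markers spanned 10 to 21.6 CPM without and 10 to 16.2 CPM with GDF11, the endothelial ones 48.7 to 75.1 and 50.6 to 83.1 CPM, the epithelial ones 50.9 to 79.8 and 52.1 to 76.3 CPM, and the adipocyte ones 0.0301 to 0.129 and 0.0133 to 0.14 CPM, so the groups overlapped in each.

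SMAD3 and SMAD4 bind the short sequence CAGAC. Promoter windows of 3 classic target genes of SMAD2 and SMAD3 are shown as examples. The matrix gene POSTN was searched as well and gave no window that met the same rules. Each is the RefSeq sequence (GRCh38.p14) with CAGAC in capitals and 25 bases on either side.
SMAD7, chr18:48951153-48951207, minus strand: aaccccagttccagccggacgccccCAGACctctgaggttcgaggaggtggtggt
CCN2, chr6:131951520-131951574, minus strand: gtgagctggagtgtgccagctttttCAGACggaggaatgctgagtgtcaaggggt
ACTA2, chr10:88952936-88952990, minus strand: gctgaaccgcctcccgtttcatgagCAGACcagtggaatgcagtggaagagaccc
The letters stood 217, 177 and 192 bases before the annotated transcription start of SMAD7, CCN2 and ACTA2, outside annotated exons. On either strand, CAGAC was found in the 250 bases before the start in 38% of 35116 human promoters. Of 39 SMAD2/3 target genes in the list used here, 28 had a promoter in the RefSeq table, and 23 of their 43 promoters held it (53.5%). These matches describe the letters and do not show binding.

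The comparison of MmC-/GDF11+ with MmC-/GDF11- asks what GDF11 does to MSCs before any senescence. Of 19103 genes tested, 0 (0%) passed the edgeR quasi-likelihood test at an adjusted p of 0.05, and the lowest adjusted p was 0.847. An unadjusted p under 0.05 was reached by 226 genes (1.18%), 94 higher and 132 lower with GDF11. The test held no term for replicate number, so differences between the numbers counted as spread and made it less sensitive. In 170 genes (0.890%) the 4 and 4 libraries did not overlap, and 72 of these were higher and 98 lower. Libraries with the same replicate number were also compared as pairs, and 1223 genes were higher (6.40%) and 1135 lower (5.94%) in all 4 of them. DESeq2 called 1 gene, VARS1, and a fit of the 8 young libraries with the replicate number as a block called 1, ABCC1. Both are described further on. In bulk RNA, fewer cells of a type and less RNA per cell cannot be told apart.

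The size of change that the fit could show depended on the level of the gene and on its spread over all 16 libraries. The median absolute log2 fold change was 0.0827 against a median standard error of 0.18. The 95% interval of the fold change lay within 2-fold in either direction for 15422 of 19056 genes with an interval (80.9%), and within 1.5-fold for 11317 (59.4%). Among 5580 genes with a mean of 5 or more log2 CPM, 98.9% had an interval within 2-fold and 91.6% within 1.5-fold. Among 7019 genes with a mean under 1 log2 CPM these shares were 52.5% and 13.4%, so that many weakly expressed genes could have differed by more than 2-fold without a call. Some abundant genes were imprecise too. FST, at a mean of 83.2 CPM without GDF11, had a standard error of 0.322. With the replicate number as a block in the 8 young libraries, that error was 0.0657. The same fit gave 0.0891 in place of 0.263 for SMAD7 and 0.0849 in place of 0.245 for SKIL. For SMAD4 the error was 0.067 with the block and 0.0651 in the main fit. The wide intervals of such genes below therefore belong to the main fit, which holds no replicate term and includes the senescent libraries.

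The components of the GDF11 pathway were present in young MSCs at levels that differed little between the groups. Of 38 genes in the list of the GDF11 and activin axis, 35 were tested, 12 were higher and 23 lower, 0 were called, and the median log2 fold change was −0.04 against −0.00 over all tested genes. Every interval of the 35 genes lay within 2-fold, and 23 of them within 1.5-fold. The remaining 3 had too few counts over the 8 libraries for a test: the ligand MSTN (15), the co-receptor TDGF1 (1) and the antagonist WFIKKN2 (14).

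Among the ligands, the cells' own GDF11 transcript (chr12:55743122-55757264) was at 18.7, 18.8, 18.9 and 19.8 CPM in replicates 1 to 4 without and at 17.3, 17.1, 18.6 and 21.2 CPM with added GDF11. The groups overlapped, and the log2 fold change was −0.04 (95% interval −0.25 to 0.18). GDF11 was added as protein, so its transcript does not check the addition. INHBA, which encodes the activin A subunit, was at 53.2 ± 7.82 CPM without and 55.3 ± 12.4 CPM with GDF11. TGFB1 was at 221 ± 22.7 and 208 ± 15.4 CPM, TGFB2 at means of 8.36 and 8.88 CPM, and TGFB3 at 9.63 ± 2.89 and 8.84 ± 1.81 CPM. For TGFB2, 22.7% of the exonic bases overlap other genes on the same strand, so its reads are uncertain. INHBB, another activin subunit, stayed under 1 CPM, with means of 0.522 and 0.48. The proteases that process such ligands were FURIN at 164 ± 16.9 and 162 ± 17.6 CPM and BMP1, which frees GDF11 from its propeptide, at 126 ± 27.6 and 116 ± 18.5 CPM. PCSK5, the convertase known to cleave the GDF11 precursor, was at 0.749 ± 0.31 and 0.64 ± 0.212 CPM, with the lowest fold change of the axis (log2 −0.23, interval −0.89 to 0.44), and TLL1 was at 0.233 and 0.235 CPM.

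Per kb of exon, the receptor TGFBR2, which binds TGF-beta rather than GDF11, was the most abundant of the receptors listed next, with a mean level of 56.6 CPM per kb without GDF11, followed by ACVR1B at 6.19, TGFBR1 at 5.21, ACVR2A at 0.778 and ACVR2B at 0.112 CPM per kb. The ranges of ACVR1B (31.4 to 37.8 CPM) and TGFBR1 (30.9 to 53.9 CPM) overlapped as plain CPM. ACVR2A (chr2:147844517-147930826), a type II receptor of GDF11, was the member of the axis with an unadjusted p under 0.05. Its level was 5.08, 4.51, 5.12 and 5.35 CPM without and 4.11, 4.6, 3.94 and 4.58 CPM with GDF11. Replicate 2 was the exception, since its level with GDF11 lay above its level without, and the groups overlapped. The log2 fold change was −0.22 (interval −0.44 to −0.00, unadjusted p = 0.0497, adjusted p = 1 by edgeR), and 1 of 35 genes at this threshold is to be read against 1.18% of all genes. ACVR2B was at 1.76 ± 0.201 CPM without and 1.69 ± 0.338 CPM with GDF11, TGFBR2 at 387 ± 63.1 and 375 ± 72.5 CPM, ACVR1B at 35 ± 2.99 and 33.9 ± 1.83 CPM, TGFBR1 at 41.7 ± 9.55 and 43.7 ± 12.3 CPM and ACVR1C at 1.95 ± 0.734 and 1.98 ± 0.187 CPM. The co-receptor TGFBR3 was at 175 ± 34.5 and 165 ± 36.9 CPM.

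The antagonists split evenly, with 4 of 8 higher and 4 lower. FST, follistatin, was at 83.2 ± 16.4 CPM without and 78.0 ± 12.3 CPM with GDF11, and FSTL3, a follistatin-like antagonist, at 50.5 ± 9.77 and 54.4 ± 13.6 CPM. The matrix proteoglycan decorin (DCN), which binds TGF-beta, varied more between replicates (945 ± 511 and 879 ± 354 CPM) than between groups. FSTL1 was at 2573 ± 529 and 2593 ± 582 CPM, LTBP1, which holds latent TGF-beta in the matrix, at 122 ± 6.57 and 110 ± 9.45 CPM, and the pseudoreceptor BAMBI at 8.43 ± 3.0 and 8.38 ± 2.5 CPM. WFIKKN1 had the highest fold change of the axis (log2 0.18, interval −0.60 to 0.97) at means of only 0.196 and 0.224 CPM, and INHA was as weak with 0.159 and 0.169 CPM.

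SMAD2 and SMAD4 had the narrowest intervals of the axis. SMAD2 was at 75.3 ± 4.01 CPM without and 75.1 ± 3.57 CPM with GDF11, a log2 fold change of −0.00 with an interval of −0.14 to 0.14. SMAD4 was at 55.9 ± 1.11 and 54.3 ± 3.53 CPM (log2 −0.04, −0.18 to 0.10), and SMAD3 at 154 ± 10.7 and 147 ± 11.7 CPM (log2 −0.08, −0.28 to 0.13). These are transcript levels and do not report phosphorylation. Of the inhibitory members, SMAD6 was at 29.4 ± 3.8 and 28.1 ± 7.96 CPM, SKI at 109 ± 8.39 and 102 ± 13.8 CPM, TGIF1 at 39.5 ± 1.52 CPM without GDF11 (log2 0.02, −0.35 to 0.38), and the ubiquitin ligases SMURF1 and SMURF2, which degrade SMADs and receptors, had log2 fold changes of −0.04 and 0.06.

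SMAD2/3 target genes showed no common shift. All 39 genes of the list were tested, 19 were higher and 20 lower, 0 were called, 0 had an unadjusted p under 0.05, and the median log2 fold change was −0.01. The interval lay within 2-fold for 31 of them and within 1.5-fold for 8, with the spread of all 16 libraries included. RNA was collected after 10 days of incubation, so a response at earlier times was not measured.

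The feedback inhibitor SMAD7, whose promoter window is shown above, was at 12.1, 13.1, 13.1 and 12.6 CPM without and 10.6, 14.1, 10.9 and 13.5 CPM with GDF11. Replicates 2 and 4 were higher and replicates 1 and 3 lower with GDF11, giving a log2 fold change of −0.05 (interval −0.61 to 0.51). The senescent libraries, whose spread enters this interval, ran from 14 to 38.2 CPM without and 14.2 to 33 CPM with GDF11. SKIL, a corepressor induced as feedback, was at 23.9, 18.4, 24.8 and 21.9 CPM without and 26.5, 25, 23.5 and 25.3 CPM with GDF11. It was higher in 3 of the 4 pairs and the groups overlapped (log2 0.17, interval −0.35 to 0.69).

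CCN2, a matricellular protein also known as CTGF, was at 233, 157, 163 and 111 CPM without and 303, 178, 117 and 117 CPM with GDF11. Replicate 1 had the highest level in both groups, and the log2 fold change was 0.11 (interval −0.81 to 1.02). ACTA2, smooth muscle actin, followed the replicate number in the same way, at 115, 83.0, 65.3 and 54.5 CPM without and 103, 69.9, 70.2 and 53.4 CPM with GDF11 (log2 −0.10, −0.75 to 0.55). COL1A1, the main chain of type I collagen, ranged from 4893 to 11530 CPM without and from 4774 to 8437 CPM with GDF11, with replicate 1 at the top of both ranges. Its log2 fold change of −0.08 had an interval of −1.21 to 1.05, which reaches past 2-fold in both directions in this fit without a replicate term. Within pairs 1 to 4 its log2 CPM differed by −0.45, 0.39, 0.02 and −0.04. TGFBI, an extracellular protein, was at 1972 ± 427 and 1955 ± 148 CPM (log2 −0.01, −0.32 to 0.29), and KLF10, an early TGF-beta response factor, at 48.5 ± 5.87 and 45.7 ± 5.45 CPM (log2 −0.09, −0.42 to 0.25).

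**Figure D1:**
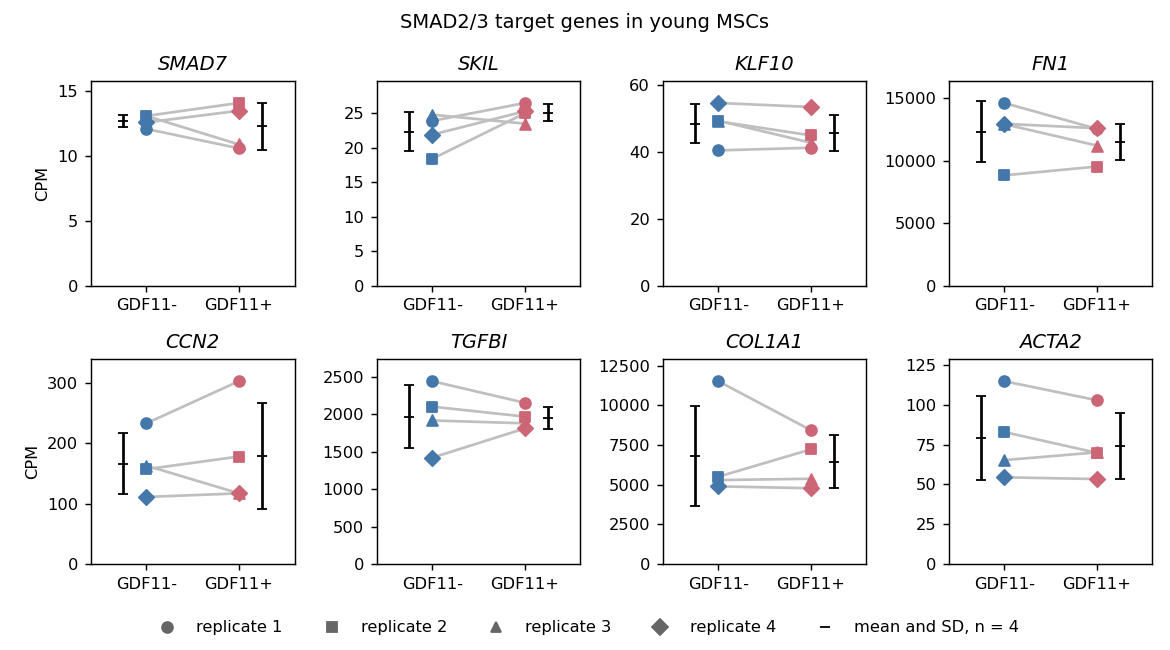
Levels in CPM of 8 SMAD2/3 target genes in each young library without (GDF11-) and with GDF11 (GDF11+). Grey lines join libraries of the same replicate number, and black bars give the mean and SD of 4 libraries. In every panel the groups overlap, and replicate 1 is the highest of its group for CCN2, TGFBI, COL1A1 and ACTA2.

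By role, the 11 matrix genes had a median log2 fold change of −0.05, the 8 secreted regulators 0.03, the 6 transcription factors −0.03, the 5 contractile genes 0.06, the 4 feedback genes 0.06 and the 5 genes of signalling enzymes or adhesion 0.09. FN1, fibronectin, was at 12323 ± 2465 CPM without and 11465 ± 1443 CPM with GDF11. At the ends of the list, COMP, a cartilage matrix protein, had a log2 fold change of 0.71 (interval −0.85 to 2.26) at 0.95 ± 0.885 and 1.55 ± 2.11 CPM, and without MmC-/GDF11+ replicate 1 this value was −0.91. ITGA11, a collagen receptor, was lowest with −0.17 (−0.89 to 0.55).

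BMP and SMAD1/5 target genes report the other branch of the superfamily. Of 11 genes, 10 were tested, 6 were higher and 4 lower, 0 were called, and the median was 0.01, although it was 0.12 without MmC-/GDF11- replicate 1. ID1, an inhibitor of differentiation factors and a direct BMP target, was at 56.6 ± 16.8 and 57.3 ± 8.96 CPM, and ID3 at 64.1 ± 14.4 and 72.3 ± 11.2 CPM. NOG, the BMP antagonist noggin, was highest of the list with a log2 fold change of 0.19 (−0.84 to 1.22). GREM1, another BMP antagonist, was lowest with −0.12 (−0.60 to 0.36), with 99.3% of its exonic sequence repeated on alternate contigs, a limit described further on.

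Of the further programmes examined, each of the 13 lists that follow held 0 called genes. The p53 targets were level, with 12 of 24 higher and 12 lower and a median of 0.01. CDKN1A, the cell cycle inhibitor p21, was at 226 ± 70.6 CPM without and 236 ± 94.1 CPM with GDF11, and GDF15, a stress cytokine, was highest with a log2 fold change of 0.23 (−0.54 to 1.00). TP53INP1, a proapoptotic target, was lowest with −0.16 (−0.63 to 0.32).

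In the osteoblast list, 7 of 11 genes were tested and 5 were lower, among them RUNX2, the master regulator of bone, at 15.9 ± 2.22 and 14.4 ± 2.71 CPM (log2 −0.14, −0.47 to 0.18). SPP1, osteopontin, was at 0.143, 0.197, 0.275 and 0.174 CPM without and 0.403, 0.335, 0.281 and 0.246 CPM with GDF11. It was higher in all 4 pairs while the groups overlapped, and rested on 69 and 98 counts per group (log2 0.68, interval 0.14 to 1.22, unadjusted p = 0.0164, adjusted p = 1 by edgeR). IBSP, bone sialoprotein, had 2 and 5 counts. The list's median was −0.08, and 0.15 without MmC-/GDF11- replicate 1.

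In the adipocyte list, 8 of 14 tested genes were lower and the median was −0.13. PPARG, the master regulator of fat cells, was at 26.1 ± 4.12 and 27.8 ± 2.55 CPM (log2 0.09, −0.32 to 0.50). Of the other 4 regulators, all with lower means, CEBPB was at 87.0 ± 11.6 and 71.9 ± 18.3 CPM and CEBPD at 51.6 ± 12.0 and 43.3 ± 6.55 CPM (log2 −0.25, −0.58 to 0.07). ADH1B, an alcohol dehydrogenase of fat, had the lowest value (log2 −0.69, −2.58 to 1.19), with an SD of 56.5 CPM around a mean of 50.2 CPM without GDF11, and this value was 0.48 without MmC-/GDF11- replicate 1. LEP, leptin, had 2 and 4 counts.

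Of 20 tested pro-angiogenic and endothelial genes, 8 were higher and 12 lower, with a median of −0.02. VEGFA, the main angiogenic growth factor, was at 172 ± 29.2 and 170 ± 34.8 CPM. KDR, its receptor, had 8 counts without and 19 with GDF11 in all 4 libraries together (unadjusted p = 0.044, adjusted p = 1 by edgeR). ANGPT2, an antagonist of TEK, was lowest with a log2 fold change of −0.47 (−1.87 to 0.92), which was 0.48 without MmC-/GDF11- replicate 1.

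The 22 PI3K and Akt pathway genes had a median of −0.02, with 9 higher and 13 lower, and 17 of them had an interval within 1.5-fold. PIK3CA, the catalytic subunit, was at 36.4 ± 5.93 and 38.1 ± 1.56 CPM, and AKT1 at 239 ± 26.6 and 241 ± 11.7 CPM. INPP4B, a lipid phosphatase, was highest with a log2 fold change of 0.17 (−0.09 to 0.44), and the transcription factor FOXO1 was lowest with −0.23 (−0.91 to 0.44). For FOXO1, 22.7% of the exonic bases overlap other genes on the same strand, so its reads are uncertain.

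The immediate early and stress genes (16 tested, 10 higher, median 0.04) and the sterol synthesis genes (10 tested, 8 higher, median 0.07) also lay close to 0. FOS, an immediate early factor, was at 4.7 ± 3.44 and 3.61 ± 3.16 CPM, the lowest of its list (log2 −0.38, −1.89 to 1.13), a value that was −1.17 without MmC-/GDF11+ replicate 2 and 0.02 without MmC-/GDF11- replicate 2. CHAC1, a gene of the amino acid stress response, was highest with 0.21 (−0.33 to 0.75). CYP51A1, a sterol demethylase, was highest of the sterol genes with 0.28 (−0.05 to 0.62). Of its exonic bases, 68.2% overlap other genes on the same strand, so its reads are uncertain. INSIG1, a sterol sensor, was lowest with −0.09 (−0.62 to 0.44). The MSC surface markers had a median of −0.01, from −0.13 (THY1) to 0.05, and the 12 tested markers of other cell types a median of 0.03. Several of the list ends named so far turned with 1 library. Without MmC-/GDF11- replicate 1 the log2 fold changes of PCSK5, ITGA11, TP53INP1 and FOXO1 were 0.10, 0.34, 0.11 and 0.18, without MmC-/GDF11+ replicate 1 those of GDF15 and CHAC1 were −0.25 and −0.06, and without MmC-/GDF11- replicate 3 that of WFIKKN1 was −0.02.

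**Figure D2:**
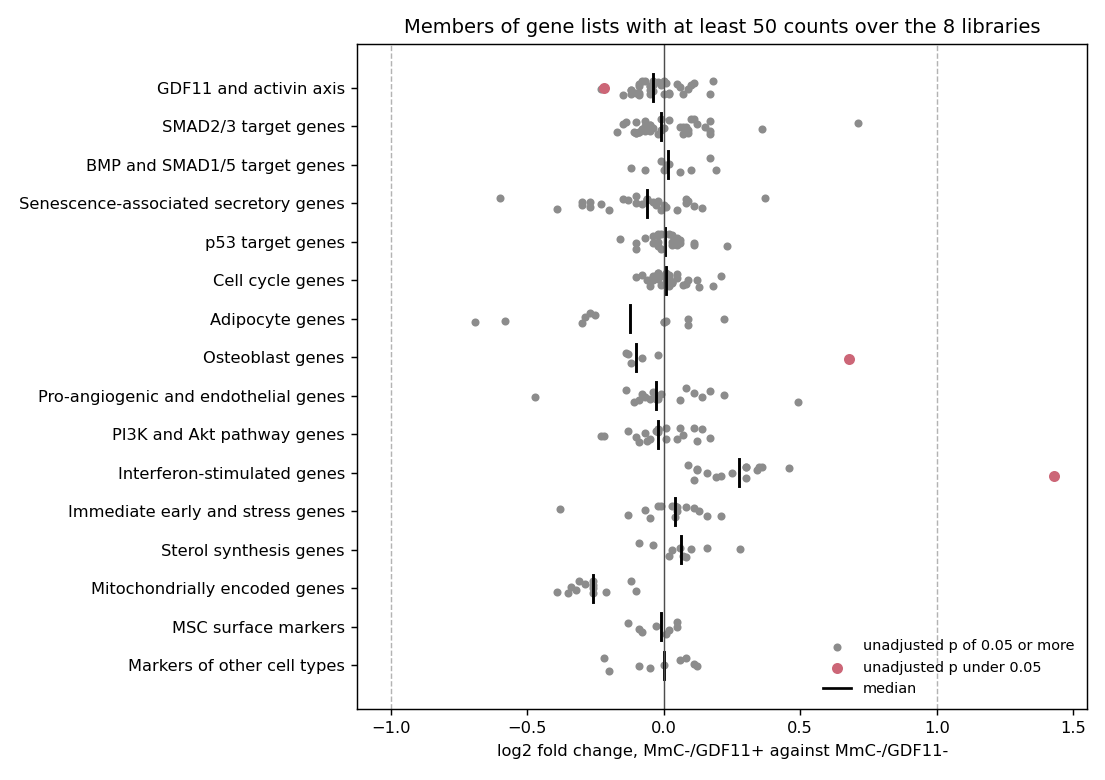
Log2 fold change with against without GDF11 in young MSCs for the members of 16 gene lists with at least 50 counts over the 8 libraries. Each dot is a gene, red where the unadjusted p is under 0.05, and black bars give medians of the genes drawn. Most lists centre near 0, while the interferon-stimulated genes lie above 0 and the mitochondrially encoded genes below it.

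Interferon-stimulated genes, which cells switch on as an antiviral defence, had higher means with GDF11 in 16 of 16 genes, with a median log2 fold change of 0.28, where 48.4% of all tested genes were higher. The pairs did not move alike. The median difference was 0.85 in pair 1, 0.38 in pair 2, 0.10 in pair 3 and −0.51 in pair 4, with 16, 16, 11 and 1 of the 16 genes higher. Without MmC-/GDF11+ replicate 1 the median was 0.02, with 8 of 16 genes higher.

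ISG15, a ubiquitin-like protein, was at 95.8, 91.1, 114 and 95.1 CPM without and 179, 123, 138 and 68.5 CPM with GDF11. Of the libraries with GDF11, 3 lay above all those without and replicate 4 lay below them (log2 0.36, interval −0.21 to 0.93). IFIT1, which binds viral RNA, was at 114, 106, 145 and 119 CPM without and 257, 129, 157 and 74.5 CPM with GDF11, with replicate 4 again the lowest (log2 0.35, −0.26 to 0.96).

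IFI27, a mitochondrial protein induced by interferon, was at 1.03, 4.93, 11.2 and 4.22 CPM without and 14.8, 19.8, 16.2 and 6.73 CPM with GDF11. It was higher in all 4 pairs, and the groups overlapped through replicate 3 without and replicate 4 with GDF11. The log2 fold change was 1.43 (interval 0.12 to 2.73, unadjusted p = 0.0373, adjusted p = 1 by edgeR), and 1 of 16 genes stands beside 1.18% of all genes at this threshold. IFI27 is one of the genes whose sequence is repeated on alternate contigs, described further on.

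Transcripts of the mitochondrial genome, which encode subunits of the respiratory chain, had lower means in 13 of 13 genes, with a median log2 fold change of −0.26. Most of this lay in 1 library. MT-ATP6, a subunit of ATP synthase, was at 476 CPM in MmC-/GDF11+ replicate 2 and at 1543 to 1573 CPM in the other libraries with GDF11, beside a mean of 1685 ± 207 CPM without. MT-CYB, cytochrome b, was at 1564, 1288, 1470 and 1634 CPM without and 1487, 424, 1470 and 1415 CPM with GDF11.

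The same library had 1.58% of its counts on mitochondrial genes, the least of the 8, against 2.77% to 3.04% in the others with and 2.81% to 3.11% without GDF11. Its part in the result was measured by leaving it out, which gave a median of −0.07 with 2 of 13 genes higher. MT-ND4L and MT-ND6, both subunits of complex I, were not low in it, at 259 and 28.3 CPM against 251 and 27.5 CPM in replicate 2 without GDF11. The medians within pairs were −0.07, −1.18, −0.05 and −0.21, and 6 of 13 genes were lower in all 4 pairs, where 5.94% of all genes were.

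Cell cycle genes gave a median near 0 from pairs that differed. The median over 35 genes was 0.01, with 22 higher and 13 lower, and 34 intervals lay within 2-fold. In pair 1 all 35 genes were higher with GDF11, with a median of 0.64, while in pairs 2, 3 and 4 only 11, 5 and 1 were higher, with medians of −0.09, −0.17 and −0.12. MKI67, the proliferation marker, was at 77.5, 84.2, 135 and 163 CPM without and 115, 87.4, 106 and 149 CPM with GDF11. Replicate 1 without GDF11 had the lowest level of the 8. CCNE2, a cyclin of S phase entry, was at 5.21, 8.06, 9.55 and 10.7 CPM without and 10.9, 7.6, 9.43 and 11.1 CPM with GDF11, the highest fold change of the list (log2 0.21, −0.59 to 1.02), and FOXM1, a mitotic transcription factor, the lowest (−0.10, −0.80 to 0.60). Without MmC-/GDF11- replicate 1 the list's median was −0.17, with 3 of 35 genes higher.

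Senescence-associated secretory genes, the inflammatory output of senescent cells, had lower means in 25 of 33 tested genes, with a median of −0.08. The 10 chemokines were all lower, with a median of −0.28, and the 6 interleukins were split 3 and 3. CXCL1, a neutrophil chemokine, was at 11.8, 24.0, 21.2 and 19.2 CPM without and 11.0, 19.2, 16.6 and 15.4 CPM with GDF11. It was lower in all 4 pairs with overlapping groups (log2 −0.30, −0.87 to 0.28). CXCL6 was at 9.89 ± 1.49 and 8.07 ± 1.1 CPM and had the lowest p of the list (log2 −0.30, −0.61 to 0.02, unadjusted p = 0.0638, adjusted p = 1 by edgeR). CXCL1, CXCL2, CXCL3 and CCL8 were the 4 of 33 genes lower in all pairs, where 5.94% of all genes were.

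CCL8, a monocyte chemokine, was the member whose groups did not overlap, on 34 counts without and 7 with GDF11 (log2 −2.06, −5.10 to 0.84), beside 0.890% of all genes. CSF3, a granulocyte growth factor, had 14 and 1 counts. IL6, the best known of these cytokines, was at 3.96 ± 1.52 and 3.96 ± 1.91 CPM, IL1A was highest with a log2 fold change of 0.37 (−0.59 to 1.34), and CXCL8 was at 19.8 ± 5.45 and 19.4 ± 4.96 CPM. The list's mean log2 CPM, centred per gene on the 8 libraries, ran from −0.02 to 0.17 without and from −0.17 to 0.05 with GDF11, and differed by −0.07, −0.16, −0.12 and −0.34 within pairs. These means are pulled by weakly counted genes such as CCL8 and CSF3, and the medians within pairs were 0.04, −0.05, −0.11 and −0.15, with 19, 12, 9 and 9 of the 33 genes higher, so the list was not lower in pair 1. Only 11 of the 33 intervals lay within 2-fold, and these intervals include the spread of the senescent libraries.

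**Figure D3:**
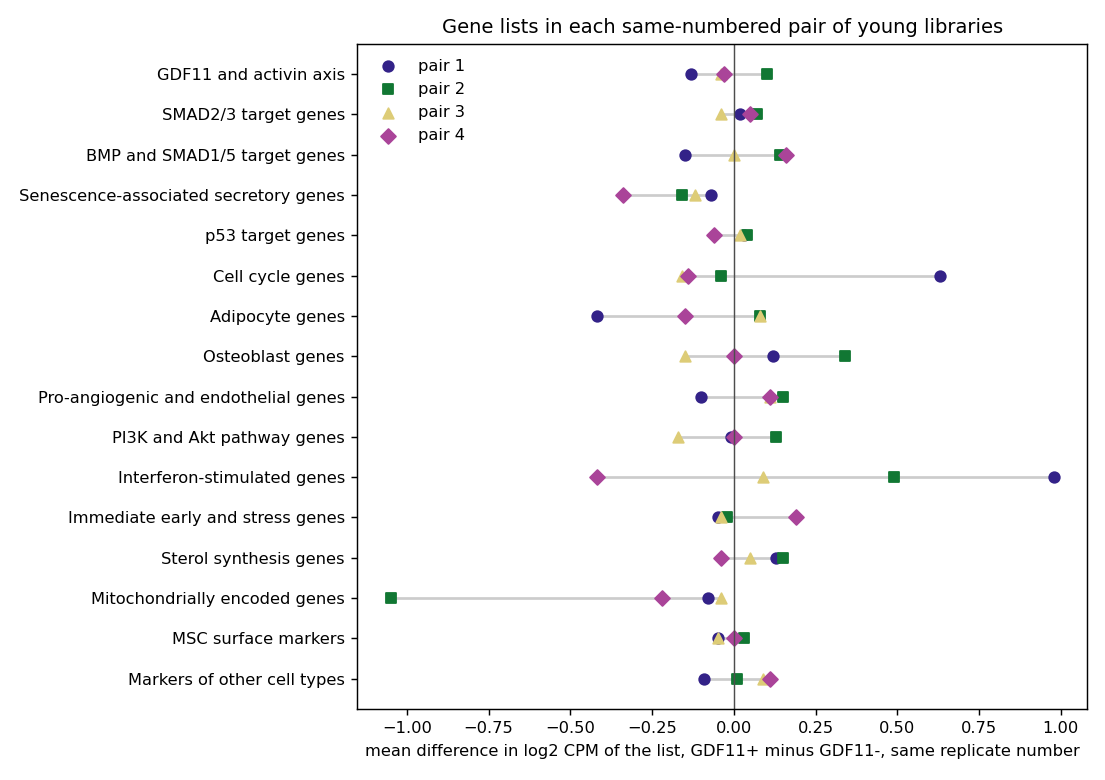
Mean difference in log2 CPM over each gene list, with minus without GDF11, for each same-numbered pair of young libraries. Each symbol is a pair and grey lines give the range. The interferon-stimulated list runs from 0.98 in pair 1 to −0.42 in pair 4, the mitochondrial list is at −1.05 in pair 2, and the cell cycle list stands apart in pair 1.

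Replicate number accounted for more of the variation among the young libraries than GDF11 did. Over 11860 genes, GDF11 took 5.24% of the summed squares with 1 degree of freedom, the replicate number 76.8% with 3, and the remainder 18% with 3. The first principal component, with 45.6% of the variance, placed replicate 1 without (31.76) and with GDF11 (19.88) apart from the 6 other libraries, which lay between −15.95 and −2.802. What the replicate number stands for is not given by the labels. The study pooled all libraries for sequencing. Among its limitations it names batch effects from technical issues, without saying which libraries they touched. Whether the replicate numbers follow these batches was not tested.

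**Figure D4:**
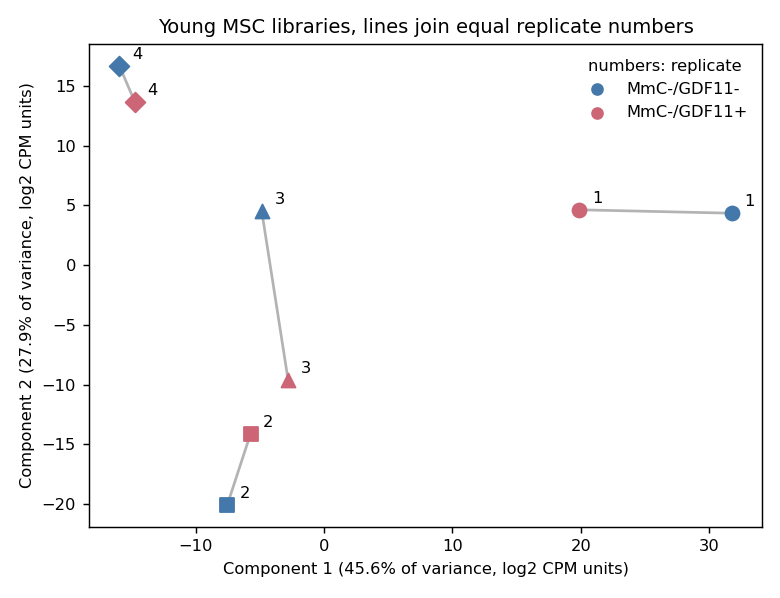
The 8 young libraries on the first principal components of log2 CPM, which hold 45.6% and 27.9% of the variance. Colours mark GDF11 and lines join equal replicate numbers. Libraries of replicates 2 and 4 lie near their partner of the other group. Those of replicate 1 lie further apart along the first component and those of replicate 3 along the second.

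The genes that came closest to a difference were picked by level, p and separation. They were 9 protein-coding genes with a mean of at least 1 log2 CPM, an unadjusted p under 0.05 and no overlap between the groups. Of these, 4 were higher and 5 lower. At any level and of any type, 72 of 19103 tested genes had such a p and no overlap. The separated groups and intervals given below follow from this selection and are no further support. All 9 had an adjusted p of 1 by edgeR. ABCC1, a pump that exports drugs and glutathione conjugates (chr16:15949138-16143257), was at 6.29, 9.81, 8.15 and 9.48 CPM without and 3.63, 4.01, 3.68 and 5.01 CPM with GDF11. Every library with GDF11 lay under every library without, and the log2 fold change was −1.05 (interval −1.69 to −0.40). With the replicate number as a block in the 8 young libraries, ABCC1 was called (adjusted p = 0.00724 by edgeR), while with the block in all 16 libraries it was not (adjusted p = 1). It is one of the genes with sequence on alternate contigs.

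The other 8 differed by less. IRX2, a homeobox factor, was at 5.63, 4.75, 5.14 and 6.88 CPM without and 4.45, 4.24, 3.66 and 4.68 CPM with GDF11 (log2 −0.40, −0.70 to −0.10). HSF4, a heat shock factor, was at 2.59 ± 0.394 and 2.0 ± 0.227 CPM (log2 −0.37), and 27.1% of its exonic bases overlap another gene on the same strand, so its reads are uncertain. RFXAP, a subunit of the complex that activates MHC class II genes, was at 5.86 ± 0.566 and 4.74 ± 0.23 CPM (log2 −0.31), and SPPL3, a protease within membranes, at 40.6 ± 1.43 and 35.2 ± 2.29 CPM (log2 −0.21).

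The higher genes differed by a log2 fold change of at most 0.19. HSPA13, a member of the HSP70 family, was at 63.7, 63.6, 69.5 and 67.2 CPM without and 83.2, 71.2, 74.9 and 72.5 CPM with GDF11. TTC21B, a protein of transport in cilia, was at 18.0 ± 1.38 and 20.5 ± 0.788 CPM, TCEAL9 at 90.4 ± 4.14 and 101 ± 4.07 CPM, and GTPBP8 at 14.9 ± 0.467 and 16.8 ± 1.02 CPM.

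The highest and the lowest fold change of all tested genes, those of VARS1 and HRAS, belonged to genes whose sequence is repeated on alternate contigs of the genome, which are further versions of variable regions. A read from such a gene can match both copies equally well, so its count can depend on how such reads were handled. Whether the authors' genome held these contigs is not given in the sources used here. Of 331 tested genes with at least 50% of their exonic 31-base words on these contigs, 13.6% differed 2-fold or more, against 1.18% of 18722 genes under that share. With a mean of at least 1 log2 CPM these numbers were 4 of 106 genes and 0 of 11767. The 4 were ABCC1, SBNO2, IFI27 and EEF1D, and the fifth gene past 2-fold at this level was a pseudoautosomal copy without a match in the annotation used. The values of HRAS, EEF1D and SBNO2 were chosen for description after they were seen.

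VARS1, the valyl-tRNA synthetase (chr6:31777518-31795752), was at 0.182, 0.393, 0.236 and 0.241 CPM without and 6.56, 0.228, 8.04 and 3.15 CPM with GDF11. Replicate 2 with GDF11 stood at the level of the controls, and 100% of the exonic words were on alternate contigs. The log2 fold change was 4.08 (interval 2.64 to 5.53), and the adjusted p was 0.847 by edgeR and 0.000183 by DESeq2. HRAS, a small GTPase of growth factor signalling (chr11:532242-537321), was at 12.6, 0.424, 21.3 and 0.54 CPM without and 0.32, 0.389, 0.358 and 0.324 CPM with GDF11. Replicates 1 and 3 without GDF11 were high and the other 6 libraries low (log2 −4.64, unadjusted p = 0.00173, adjusted p = 1 by edgeR). The groups did not overlap, by the narrow gap between 0.424 CPM without and 0.389 CPM with GDF11. Again 100% of the words were on the contigs.

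EEF1D, a translation elongation factor subunit, was at 60.3 CPM in replicate 4 with GDF11 and at 3.03 to 7.46 CPM in the other 7 libraries. Its log2 fold change of 1.91 was −0.16 without that library. SBNO2, a transcriptional coregulator, was at 14.5 CPM in replicate 3 without GDF11 and at 1.55 to 3.66 CPM elsewhere, and its log2 fold change of −1.03 was 0.19 without that library. These shares were 100% for EEF1D and 90.9% for SBNO2, and 97.2% for ABCC1, whose log2 fold change stayed between −1.16 and −0.97 when any 1 young library was left out. The part of the contigs in these values was not tested.

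**Figure D5:**
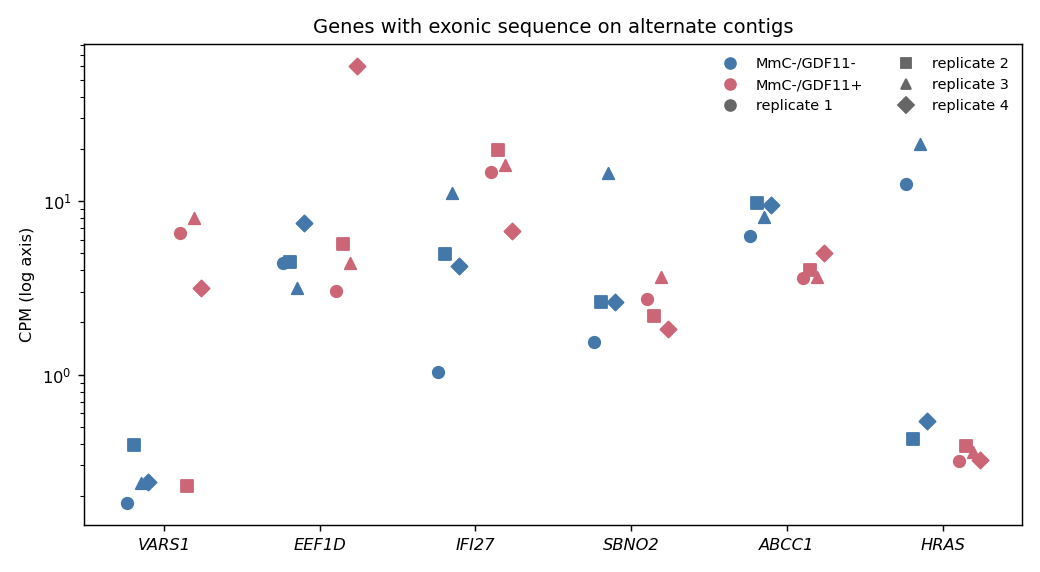
Level in CPM on a log axis of 6 genes with most of their exonic sequence on alternate contigs, in each young library. Colours mark GDF11 and symbols the replicate number. VARS1, EEF1D, SBNO2 and HRAS have 1 or more libraries far from the others of their group. ABCC1 separates the groups, and HRAS does so too, by a narrow gap among its low libraries.

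Whether GDF11 acted differently in young and in senescent MSCs was tested as an interaction in the same fit. Of 19103 genes, 0 (0%) passed the edgeR test at an adjusted p of 0.05, and 172 had an unadjusted p under 0.05, with 0 calls in DESeq2. Set side by side, the median log2 fold changes with GDF11 in young and senescent MSCs were −0.01 and −0.03 for SMAD2/3 targets, −0.08 and −0.09 for secretory genes, 0.28 and 0.03 for interferon-stimulated genes and −0.26 and 0.12 for mitochondrially encoded genes. Of the last, 13 of 13 were lower in young and 12 of 13 higher in senescent MSCs. The young medians of these last 2 lists each shrank when 1 library was left out, as given above. For the interferon-stimulated genes it was MmC-/GDF11+ replicate 1, and for the mitochondrially encoded genes MmC-/GDF11+ replicate 2. No list was tested for an interaction. For IFI27 the log2 fold changes were 1.43 and −0.63, and the interaction had an unadjusted p of 0.032 and an adjusted p of 1 by edgeR. For ABCC1 they were −1.05 and −0.36.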

How the data were processed

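The authors aligned poly(A) RNA-seq reads to hg38 with HISAT2 2.2.1, counted them on GENCODE V38 genes with featureCounts 2.0.1 and deposited raw counts per gene, without normalization. Strand setting and treatment of reads with several alignments are not given in the sources used here. Groups and replicate numbers came from the labels. Counts of all 16 libraries were fitted with edgeR 4.0.16 (R 4.3.3) after filterByExpr (minimum count 10, total 15) and TMM scaling, with 1 mean per group, the robust quasi-likelihood test and Benjamini-Hochberg adjustment over 19103 of 60649 genes at 0.05. Intervals are 95% Wald intervals. The depth leaves genes under 1 log2 CPM imprecise.

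Members and gene lists were chosen with earlier results of these data known. Named genes are the GDF11 and activin axis, the ends of each list, list members with an unadjusted p under 0.05, up to 10 protein-coding genes per direction that met the level, p and separation rule, and genes called by any fit of the 8 libraries. Alternatives were RLE and upper-quartile scaling, other filters, only the young libraries, replicate blocks, 1 surrogate variable (sva 3.50.0), limma-voom 3.58.1, DESeq2 1.42.0 and leaving out libraries. Counts of intervals under these fits, and calls without genes on alternate contigs, were added after seeing the data. Positions came from GENCODE v44 (186 identifiers unmatched), and 31-base words were sought on 261 alternate contigs. Some list members are not reported here. Steps were tested on simulated counts.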

Additional observations from a re-analysis of the deposited data

Results flagged for a closer look

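For each group of 4 values, the gap between the highest or lowest library and the nearest other was divided by the group's range. In 14 of 176 groups this share exceeded Dixon's 95% limit for 4 values, which about 1 in 20 independent unselected groups would pass. Of the 14, 4 fell on MmC-/GDF11- replicate 1, 2 on its replicate 2, 4 on MmC-/GDF11+ replicate 1, 3 on its replicate 2 and 1 on its replicate 4. Many of the genes were named as list ends or for their p, and all groups share the same libraries. The rate of 1 in 20 therefore does not hold for this set.

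MmC-/GDF11- replicate 1 was highest for BMP1 (167 CPM, others 109 to 114, gap share 0.88), FOXO1 (2.01, others 0.839 to 0.906, 0.913), TGFB3 (13.9, others 7.92 to 8.51, 0.872) and the mean of the p53 targets (0.861). MmC-/GDF11- replicate 2 was lowest for INHA (0.124 CPM, others 0.169 to 0.174, 0.918) and the mean of the PI3K and Akt genes (0.833).

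MmC-/GDF11+ replicate 1 was highest for FSTL1 (3465 CPM, others 2275 to 2329, 0.944), TGFB3 (11.5, others 7.81 to 8.11, 0.903) and ANGPT2 (0.264, others 0.134 to 0.148, 0.863), and lowest for SMAD3 (129, others 150 to 154, 0.846). MmC-/GDF11+ replicate 2 was lowest for MT-ATP6 (476 CPM, others 1543 to 1573, 0.984) and the mean of the mitochondrially encoded genes (0.914) and highest for CYP51A1 (6.91, others 5.11 to 5.34, 0.857). MmC-/GDF11+ replicate 4 was lowest for the mean of the adipocyte genes (0.839).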

How the results depend on the processing

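The count of called genes was 0 for GDF11 in young MSCs under RLE and upper-quartile scaling, both other filters, the 8 young libraries alone, limma-voom and 1 surrogate variable, and for the interaction under every alternative run. DESeq2 called 1 gene, VARS1. Leaving out libraries gave 0 to 1 calls, the 1 being VARS1 without MmC-/GDF11+ replicate 2 (adjusted p = 0.000182, edgeR) and without replicate 2 of each group. With genes on alternate contigs not counted, these calls and that of the replicate block were 0. This had to be so, since VARS1 (100%) and ABCC1 (97.2%) are themselves such genes, and it tests nothing further. Replicate numbers were not taken as pairs, by a rule that asked for a correlation over 0.1 in every pair. Same-numbered libraries correlated in their deviations from the group means at 0.504, 0.264, 0.098 and 0.502, so replicate 3 fell just short. Replicate 3 of either group correlated better with another number. Among genes at 1 log2 CPM or more the lowest value was 0.175. With the number as a replicate block, 0 genes were called over 16 libraries and 1 over the 8 young ones (ABCC1, adjusted p = 0.00724, edgeR), with 551 and 657 genes at an unadjusted p under 0.05 against 226. As a random effect in limma-voom it gave 0 calls. The cause of these differences was not tested. An unadjusted p under 0.05 was reached by 541 genes without MmC-/GDF11- replicate 2 and 410 without MmC-/GDF11+ replicate 4, and 653 of 41196 with no filter. Counts of intervals within 2-fold and 1.5-fold stayed within 1.5 times the reported ones. Of 1751 alternative values of named genes, 4 passed the threshold (ABCC1 1, VARS1 3) and 115 changed sign, none of them a called value, and of 320 list medians 47 changed sign. Depth limits genes under 1 log2 CPM, where the median standard error was 0.35.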
